A study of Mus musculus with 16 samples.

Results

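The genes described here are those that the authors listed as differentially expressed between the inflamed and the healthy colon of wild type (WT) mice. Every gene row of that list was taken, which gave 3261 genes out of 5171 genes in the 4 comparisons of the series together (63.1%). The change of a gene is the WT colitis mean minus the WT control mean, each a mean over libraries of log2 RPM, the read count of a gene scaled to the total reads of its library. The genes were chosen by the authors' adjusted p-value for this same comparison, at a threshold of 0.05, so the directions and sizes below are a description and no further test of this comparison was made. Only group means were used, which leaves the spread between mice unknown, and no value below carries an SD. With the values of single libraries not used here, whether the mice of the 2 groups overlap in a gene cannot be said.

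RNA came from pieces of whole colon wall of male C57BL/6 mice, which were age matched, with the age not given in the sources used here. Labels number the libraries of a group and do not say which mice shared a litter or cage. WT control was 3 libraries from untreated mice, and WT colitis was 5 libraries from mice given 1% dextran sodium sulphate (DSS) in the drinking water for 15 days. Mice of both groups had received an enriched microbiota, by bedding transfer and shared air with donor females from a second animal facility, and RNA of both groups went through the same lithium chloride steps that remove DSS. Mice whose gut epithelium lacks the chromatin remodeller Smarcad1 (KO, Villin-Cre with Smarcad1 fl/fl) went through the same scheme, with 3 control and 5 colitis libraries, and are used only to set a second colitis response beside that of WT. The villin promoter acts in epithelium, so the other cells of the KO colon kept Smarcad1. The KO libraries took no part in the choice of the genes and share none with the WT comparison. Depth was recovered from the steps between the lowest means, at a geometric mean of 10.1 M reads per library in WT control and 8.0 M in WT colitis, so that 3 reads per library correspond to 0.297 and 0.375 RPM. Fold changes against a mean at or under 3 reads are lower bounds set against 3 reads.

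DSS is a sulphated polysaccharide that damages the surface epithelium of the colon, so that bacteria of the lumen reach the tissue below. In the response that follows, epithelial cells switch on antimicrobial and oxidant genes, leukocytes enter and release cytokines, and the layer of surface colonocytes, which takes up salt and water and clears foreign chemicals, is disturbed. In whole tissue, more cells of a type and more RNA per cell cannot be told apart.

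Of the 3261 genes, 1895 rose (58.1%) and 1366 fell (41.9%). Rises reached further than falls. A change of at least 1 on the log2 scale was a rise in 897 genes (27.5%) and a fall in 562 (17.2%), a change of at least 3 was a rise in 156 and a fall in 23, and a change of at least 5 was a rise in 24 and a fall in 0 genes. The typical gene moved about equally in both directions, with a median of 0.92 for rises and −0.89 for falls. Summed over genes, the rising genes went from 15.7% to 26.5% of the reads of an average library, and the falling genes from 20.1% to 11.5%. These shares are sums of geometric means. The smallest listed rise was that of Rab7, a GTPase of late endosomes, at 0.16, and the smallest listed fall that of Actr1b, a subunit of the dynactin complex, at −0.29.

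The size of the change went with the level of the gene in healthy colon. Levels of different genes were compared per kilobase of annotated exon, over the 3219 genes with an annotated length, in 5 bins of 643 or 644 genes. In the lowest bin, up to a control level of 0.28 log2 RPM per kb, 71.7% of genes rose, the median rise was 2.14 and the median fall −1.44. In the highest bin, from 5.00 log2 RPM per kb, 57.1% rose, with a median rise of 0.46 and a median fall of −0.70. The smallest change that was listed also differed, at 0.45 in the lowest and 0.16 in the highest bin, so among weak genes only larger changes were listed. The largest rises were thus rises of genes that were close to silent in healthy colon, and abundant genes shifted less. The control mean that sets the bin is also subtracted in the change. When genes were binned by the mean of both groups instead, the order of the shares turned around, with 53.7% rising in the lowest and 66.5% in the highest bin, and the lowest bin had a median change of 0.96 in place of 1.57. The median rise still fell from 2.21 to 0.50 between these bins.

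**Figure D1:**
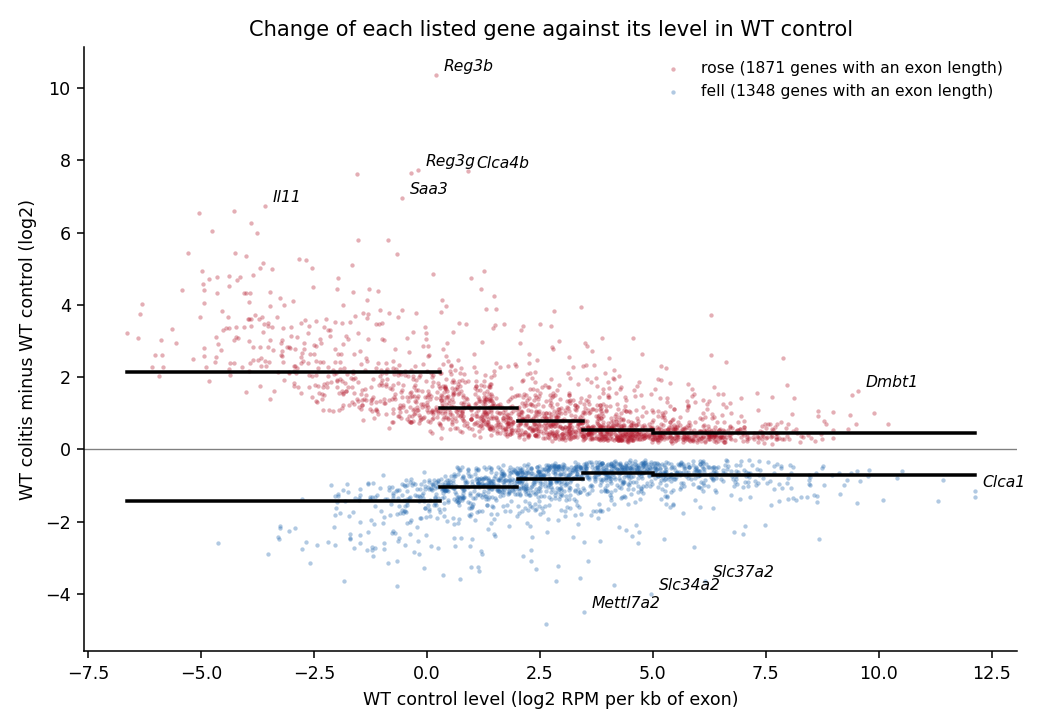
Each point is 1 listed gene, placed by its WT control level per kilobase of exon (log2 RPM per kb, x axis) and its change in colitis (WT colitis minus WT control, log2, y axis), red where it rose and blue where it fell, and black bars are the median rise and the median fall in each of 5 bins of level. The bars for rises step down from 2.14 to 0.46 from the lowest to the highest bin, and those for falls go from −1.44 in the lowest to −0.65 in the fourth and −0.70 in the highest bin.

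At the top of the list stood genes of antimicrobial defence and of neutrophils. Reg3b and Reg3g encode secreted C-type lectins that bind bacteria in the mucus. Reg3b rose from 1.30 RPM in WT control to 1723 RPM in WT colitis, a log2 change of 10.37, and Reg3g from 1.83 to 392 RPM, a change of 7.74. Reg3b, nearly absent from healthy colon, thus became one of the 10 listed genes with the highest level per kilobase in colitis, at 10.56 log2 RPM per kb. Clca4b, a protease-like member of the chloride channel accessory family, went from 5.65 to 1173 RPM (change 7.70).

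The next places were taken by S100a9, S100a8, Saa3, Il11, Gm4841, Cxcr2 and Prss22. S100a8 and S100a9 form calprotectin, the metal-binding protein of neutrophils that is measured in stool as a sign of gut inflammation. S100a9 rose from 0.407 to 82.3 RPM, a change of 7.66. For S100a8 the control mean was at or under 3 reads per library, and against 3 reads it was at least 157-fold higher in colitis, at 46.5 RPM. Saa3, an acute-phase apolipoprotein made by epithelium and macrophages, rose by 6.95, from 1.77 to 219 RPM. Il11, a cytokine of the interleukin 6 family made by stromal cells, was at least 62.7-fold higher, and the neutrophil chemokine receptor Cxcr2 at least 28.7-fold. The interferon-induced GTPase gene Gm4841 was at least 48.3-fold higher, and the serine protease gene Prss22 at least 23.3-fold. These 4 had control means at or under 3 reads, as had 124 of the rising genes in all.

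Because Reg3b and Reg3g lie close together on chromosome 6, on opposite strands, and led the list, their promoters are shown. STAT, NF-kB and C/EBP elements and the TATA box were searched in them on both strands. The sequences are the 250 bases before the start site in RefSeq (GRCm38.p6), read along the strand of each gene, with capitals marking TATAAA in either orientation and, in Reg3b, TTCNNNGAA, the element read by STAT dimers.
Reg3b, chr6:78370635-78370884, plus strand: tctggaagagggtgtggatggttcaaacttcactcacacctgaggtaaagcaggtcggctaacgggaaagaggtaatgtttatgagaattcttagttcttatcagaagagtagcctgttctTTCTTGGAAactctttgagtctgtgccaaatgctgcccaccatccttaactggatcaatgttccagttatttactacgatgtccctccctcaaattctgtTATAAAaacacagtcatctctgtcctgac
Reg3g, chr6:78468875-78469124, minus strand: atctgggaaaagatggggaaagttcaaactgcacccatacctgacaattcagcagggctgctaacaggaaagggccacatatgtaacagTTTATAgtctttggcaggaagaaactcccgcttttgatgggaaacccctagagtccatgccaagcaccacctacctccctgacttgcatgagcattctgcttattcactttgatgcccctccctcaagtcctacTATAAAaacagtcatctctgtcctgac
In a global alignment 175 of 254 columns were identical (68.9%), and the longest unbroken run that both share was 20 bases. The TATAAA nearest to the start began 29 bases before it in Reg3b and 27 bases before it in Reg3g. The STAT element of Reg3b had no match in the window of Reg3g. The authors' span of Reg3b begins at chr6:78370657, upstream of the RefSeq start used here. Most of the Reg3b bases shown, with both marked elements, thus lie within the gene as the authors placed it.

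The deepest falls were in Methig1 and Mettl7a2, of a small family of methyltransferase-like genes, and in the solute carrier gene Slc34a2. Mettl7a2 fell by 4.51, from 19.9 to 0.874 RPM. Methig1, which overlaps it on chromosome 15 and cannot be told apart from it in these counts, as strand was not stated to be used, went from 9.28 RPM to a mean at or under 3 reads and was at least 24.8-fold lower. Slc34a2, the sodium-phosphate cotransporter of the apical membrane, fell by 3.99, from 157 to 9.84 RPM, and Slc37a2, a sugar-phosphate exchanger, by 3.63, from 471 to 37.9 RPM. Itih2, a heavy chain of the inter-alpha-trypsin inhibitor, fell by 3.65 and Lancl3 by 3.58. Nyx, a leucine-rich repeat proteoglycan, went from 1.45 RPM to a mean under 3 reads and was at least 3.87-fold lower. A further 3 of the 10 largest falls were transcripts without a named product, the antisense transcripts 9630028B13Rik and 5430427M07Rik and the unmatched AC117245.1. 5430427M07Rik fell by 3.74, from 20.2 to 1.51 RPM.

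**Figure D2:**
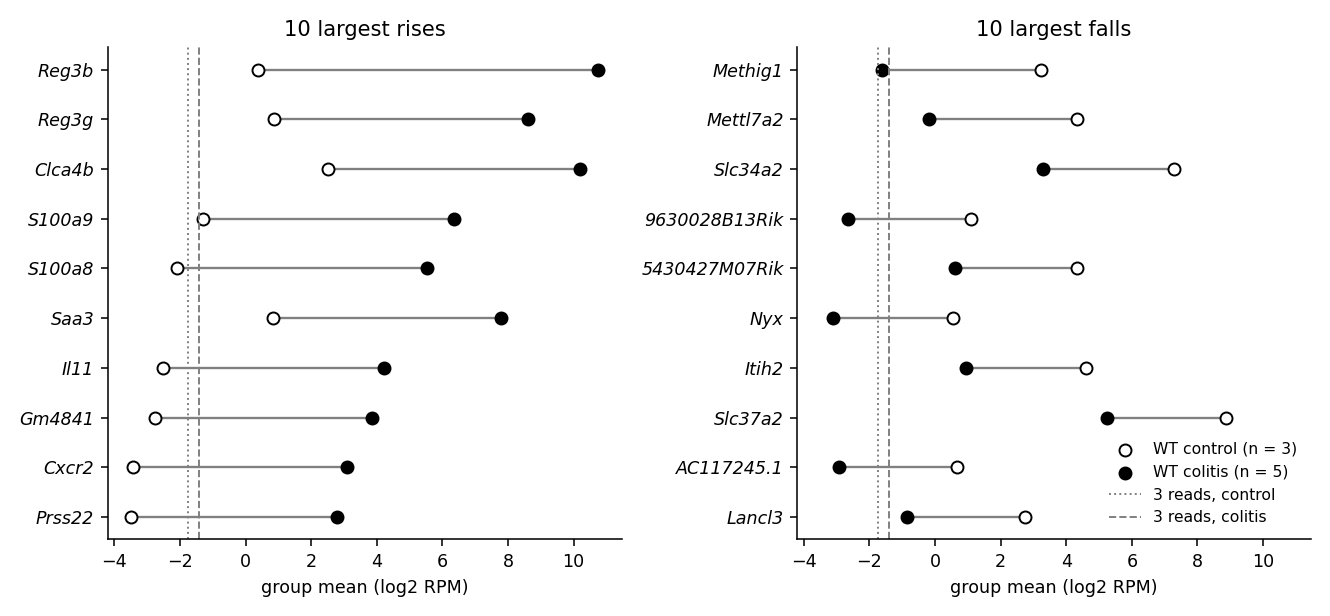
Group means (log2 RPM, x axis) of the 10 largest rises (left) and the 10 largest falls (right) in WT control (open circles, 3 libraries) and WT colitis (filled circles, 5 libraries), with vertical lines at the level of 3 reads per library in each group (−1.75 and −1.42). Reg3b, Reg3g, Clca4b and Saa3 started above 3 reads, while S100a8, Il11, Gm4841, Cxcr2 and Prss22 started below, and Methig1, 9630028B13Rik, Nyx and AC117245.1 ended below.

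Abundant genes were examined next. In WT control the listed genes with the highest levels per kilobase were Guca2a, which encodes the ion transport hormone guanylin, and Clca1, a main protein of the mucus gel. Guca2a fell from 2660.2 to 1066 RPM (change −1.32) and Clca1 from 16847 to 7598 RPM (−1.15). Klk1 (−0.83), Sycn (−1.43), Lgals3 (−0.60), Phgr1 (−0.78), Aqp8 (−1.40) and Prdx6 (−0.58) fell as well, so that 8 of the 10 listed genes with the highest control level were lower in colitis, and Muc13 (0.70) and Spink4 (1.00) were higher. These 10 were picked by the control mean that the change subtracts, and genes that were not listed are not ranked here. In WT colitis the order was led by Dmbt1, a scavenger receptor that is secreted at the mucosal surface. Dmbt1 rose from 5252 to 16036 RPM (1.61). It was followed by Clca1, Muc13 and B2m, the light chain of MHC class I, which rose from 588 to 1655 RPM (1.49). Ly6a, which encodes Sca-1, a surface protein of regenerating epithelium and of leukocytes, rose from 285 to 1646 RPM (2.53).

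Genes were then grouped by function into 64 lists, of which 52 had at least 5 listed members. In 20 of these 52 lists each member rose and in 2 each member fell. Counted over single listed genes, which is another measure, 58.1% rose and 41.9% fell. Some genes stand in several lists, so the lists are not independent. Counts below are of listed genes, which had passed the threshold of the authors, and genes of a list that did not pass are not counted. Of the 3261 genes 508 overlap another gene of the tables, and as use of strand was not stated their reads may be shared, which holds for Mettl7a2, Methig1, Muc13, Duoxa2, Gpx2, Slc20a1, Atp12a, Abcb1a, Hmgcs1, Mvd, Fdft1, Igtp, Tgtp1, Tgtp2, Irf1, Nlrc5, Tap1, Psmb8, Psmb9, Timp1, Timp4, Chat, Selp, Vcam1, Icam1, Axin2 and Ccnd1. Close copies, such as the Serpina3, Cyp2, Ces, Gstm and Sirpb1 genes, can share reads too.

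Genes of epithelial and acute-phase defence mostly rose. Of 10 genes of metal binding and the acute phase, 9 rose and 1 fell, with a median of 3.11. Lcn2, which withholds iron from bacteria by binding their siderophores, rose from 3.25 to 45.2 RPM (3.80). Hp, the haemoglobin scavenger haptoglobin, rose by 3.48 and the protease inhibitor Slpi by 2.73. Pglyrp1, a peptidoglycan-binding protein and the most abundant member per kilobase, rose from 296 to 634 RPM (1.10). Orm1, an acute-phase glycoprotein best known from liver, went the other way, from 2.07 to 0.505 RPM (−2.04). The listed genes that make or remove oxidants rose in 7 of 7 cases, which are Nos2, Duox2, Duoxa1, Duoxa2, Gpx2, Noxo1 and Noxa1. Nos2, the inducible nitric oxide synthase, went from 10.1 to 220.1 RPM (4.44), and Duox2 with its partner Duoxa2, which release hydrogen peroxide at the surface, rose by 1.18 and 1.33. Gpx2, the epithelial glutathione peroxidase, rose from 641 to 1738 RPM (1.44).

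Promoter windows were matched for 8 of the 10 acute-phase genes, and 5 of the 8 held TTGCNNAA or its reverse complement, the form read by C/EBP factors, which drive acute-phase genes. Among all 27025 genes with a window it was 10.7%. The stretches around these matches are shown as they read along each gene, with the match in capitals.
S100a9, chr3:90695925-90695971, minus strand: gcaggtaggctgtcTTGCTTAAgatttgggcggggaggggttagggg
Saa3, chr7:46715743-46715800, minus strand: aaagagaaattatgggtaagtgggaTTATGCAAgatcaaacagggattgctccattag
Lcn2, chr2:32387923-32387980, minus strand: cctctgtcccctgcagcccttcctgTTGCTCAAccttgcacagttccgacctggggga
Slpi, chr2:164356716-164356757, minus strand: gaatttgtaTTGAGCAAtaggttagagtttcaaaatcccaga
Saa2, chr7:46751625-46751682, plus strand: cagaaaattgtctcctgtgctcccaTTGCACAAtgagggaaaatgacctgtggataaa
The distance of the match from the start ranged from 99 bases in Saa3 to 241 bases in Slpi. A match of letters is a description and no shown binding site.

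Goblet cell products split. Goblet cells secrete the mucus and its helpers, and 4 of their 8 listed genes rose while 4 fell. Retnlb, an antibacterial protein of goblet cells, rose from 54.5 to 723 RPM (3.73), Muc1 by 1.05 and Spink4 by 1.00. Clca1 and Guca2a fell, as given above, together with Klk1 and Fer1l6 (−0.63). Muc2, the main gel-forming mucin, was in none of the 4 tables and was not analysed here. Within the Clca family, Clca4b and Clca1 moved in opposite directions. The level of Clca4b was 0.92 log2 RPM per kb in WT control and 8.61 in WT colitis, and that of Clca1 was 12.12 and 10.97.

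Genes of the absorptive surface mostly fell. Of 21 listed genes of colonocyte transport, 17 fell and 4 rose, with a median of −0.86, and their summed level went from 15314 to 7179 RPM. Beside Slc34a2 and Slc37a2, Sgk1, the kinase that keeps sodium channels at the membrane, fell from 624 to 123 RPM (−2.35). Slc20a1, a second phosphate carrier, fell from 737 to 169 RPM (−2.12), and Atp12a, the proton-potassium pump of the distal colon, from 715 to 167 RPM (−2.10). The water channel Aqp8 lost more than 1 on the log2 scale, from 1729 to 655 RPM, as did the chloride-bicarbonate exchanger Slc26a3, from 2156 to 872 RPM. Car4, the carbonic anhydrase of the surface and the most abundant member per kilobase in colitis, fell from 1702 to 1017 RPM (−0.74). The largest rise of the list was that of the amino acid transporter subunit Slc7a9, from 3.53 to 11.6 RPM (1.72). Over all 73 listed genes with a Slc symbol, 43 fell and 30 rose, with a median of −0.53.

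Enzymes that clear foreign chemicals mostly fell. Of 14 listed cytochrome P450 genes 11 fell, with a median of −1.14. Cyp2c69 went from 17.8 to 1.52 RPM (−3.55) and Cyp3a13 from 314 to 130.5 RPM (−1.27). The exceptions included Cyp7b1, an oxysterol hydroxylase, which rose by 2.06, and Cyp4f18, a leukotriene hydroxylase of neutrophils, which rose by 1.72. The sulfotransferases fell in 5 of 5 cases, led by Sult1a1 (599.9 to 243 RPM, −1.30), and the glutathione transferases in 6 of 7, with Gstp3 the exception (1.49). The efflux pumps Abcb1a (−1.38), Abcc2 (−1.06) and Abcg2 (224 to 112 RPM) each fell, Abcb1a from 1403 to 539 RPM. Of the carboxylesterases, Ces2c fell from 636 to 249 RPM (−1.35). The enzymes that oxidise alcohols, aldehydes and retinol were split, with 5 up and 5 down. Aldh1a3, which makes retinoic acid, rose by 1.81, while Aldh3a1 fell from 1.78 to 0.477 RPM.

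Genes of nuclear receptors and of a coactivator mostly fell, and their link to the falls above was not tested. Of 9 listed nuclear receptors 7 fell, among them Esrrg (−2.34), Ppara, the fatty acid receptor (−1.15), Vdr, the vitamin D receptor (−0.60), and Hnf4a, a factor that defines gut epithelium, from 2073 to 1451 RPM (−0.51). Nr1h4, the bile acid receptor, rose by 0.57. Ppargc1a, a coactivator of mitochondrial genes, fell from 92.6 to 32.2 RPM (−1.52). In the list of fatty acid oxidation and ketogenesis, which holds Ppargc1a and Ppara, 6 of 8 genes fell, with Fabp2, the intestinal fatty acid-binding protein, at −0.99.

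Genes of cholesterol synthesis rose. Of 23 genes of the pathway and its control 20 were in the tables, and 19 of 19 listed here rose, with a median of 0.66. Hmgcs1, an early enzyme of the pathway and the most abundant member per kilobase, rose from 546 to 918 RPM (0.75). Mvd, which makes isopentenyl diphosphate, rose by 1.04, and Fdft1, the squalene synthase, from 205 to 382 RPM (0.90). The smallest rise was that of Dhcr7, which acts in the last steps, at 0.23. These changes were smaller than those of the defence genes above.

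Most leukocyte genes rose. Of 25 listed neutrophil genes 25 rose, with a median of 3.11. Beside S100a8, S100a9 and Cxcr2, Csf3r, the receptor for granulocyte colony-stimulating factor, went from 1.49 to 32.1 RPM (4.43). Control means of 7 of the 25 were at or under 3 reads, and with these raised to 3 reads the median was 2.04. Cd177, a neutrophil surface protein, was already at 352 RPM in control, the highest level per kilobase in the list, and reached 942 RPM. Csf3r had 1.49 RPM in the same control group, and which cells the Cd177 reads came from was not tested.

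Of 27 listed monocyte and macrophage genes 26 rose (median 1.66). Chil3, a chitinase-like protein of activated macrophages, was at least 25.9-fold higher, and the scavenger receptor Marco at least 16.6-fold. Fcgr4, an activating receptor for immunoglobulin G, rose from 3.08 to 46.1 RPM (3.90) and Ccr2, the receptor of incoming monocytes, from 9.31 to 51.0 RPM (2.45). Mertk, a receptor for the uptake of dying cells that marks resident macrophages, was the exception at −0.37. The Fc and paired receptors of myeloid cells rose in 29 of 29 cases, and the Toll-like, NOD-like and C-type lectin receptors in 27 of 27.

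T cell genes rose in 22 of 22 cases (median 2.36). Cd3d, part of the T cell receptor complex, went from 0.624 to 5.82 RPM (3.22). The receptor constant region Trbc2 rose by 3.25, the coreceptor genes Cd8a and Cd8b1 by 3.13 and 3.32, and Ctla4, an inhibitory receptor, by 3.30. Cytotoxic genes rose in 11 of 11 cases, with Gzmb, the protease of killer cells, from 0.456 to 15.6 RPM (5.10), and Ifng at least 8.49-fold higher. Of the mast cell and eosinophil list 6 of 7 rose. Mcpt1, the mucosal mast cell protease, went from 0.861 to 11.8 RPM (3.78) and Mcpt2 was at least 24.5-fold higher, while Kit, which also marks the pacemaker cells of the gut wall, fell from 184 to 98.1 RPM (−0.91). The B and plasma cell list was nearly empty. Of its 28 genes, 3 were in any table and Prdm1 alone was listed here, with a rise of 1.51, and Prdm1 is not particular to these cells.

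Cytokine genes rose as well, and some of those that recruit and steer leukocytes had control means at or under 3 reads. Il6, which drives the acute phase, was at least 20.0-fold higher in colitis at 5.94 RPM, and Csf3, which calls out neutrophils, at least 5.27-fold. Tnf rose from 1.12 to 16.3 RPM (3.86). Socs3, the feedback inhibitor that STAT3 induces, rose from 19.3 to 208 RPM (3.43). In all, 22 of 22 listed genes of the interleukin 6, TNF and colony-stimulating factor list rose (median 1.61). The interleukin 1 family rose in 8 of 8 cases, with Il1a at 3.69, the decoy receptor Il1r2 at 3.49, and the alarmin Il33 and its receptor Il1rl1 at 2.28 and 2.17. Il1rn, the receptor antagonist and the most abundant of them per kilobase, rose from 101 to 179.9 RPM (0.84).

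In the type 17 list the cytokines and their receptors went apart. Il17a, Il12b and Il22 had control means at or under 3 reads and were at least 3.63-fold, at least 6.40-fold and at least 2.86-fold higher. The receptors Il22ra1 (−0.98) and Il17re (−0.63), which epithelial cells carry, fell, and Il22ra2, a secreted trap that binds interleukin 22, fell from 9.97 to 2.79 RPM (−1.84). Nfkbiz, an inducible partner of NF-kB, rose from 82.5 to 189 RPM.

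Chemokine genes rose in 13 of 13 cases for the CXCL family and in 18 of 19 for the CCL family, with medians of 2.37 and 2.42. Among ligands of neutrophils, Cxcl5 rose from 1.01 to 56.6 RPM (5.80), and Cxcl1 and Cxcl3 were at least 18.6-fold and at least 13.0-fold higher. Among ligands of T cells that interferon induces, Cxcl9 rose from 1.91 to 81.1 RPM (5.41) and Cxcl10 from 2.83 to 49.6 RPM (4.13). Ccl2, the monocyte ligand, rose by 3.96 and its relative Ccl8 by 3.93, to 82.5 RPM. The exception was Ccl25, a ligand from epithelium for gut-homing T cells, at −0.77.

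**Figure D3:**
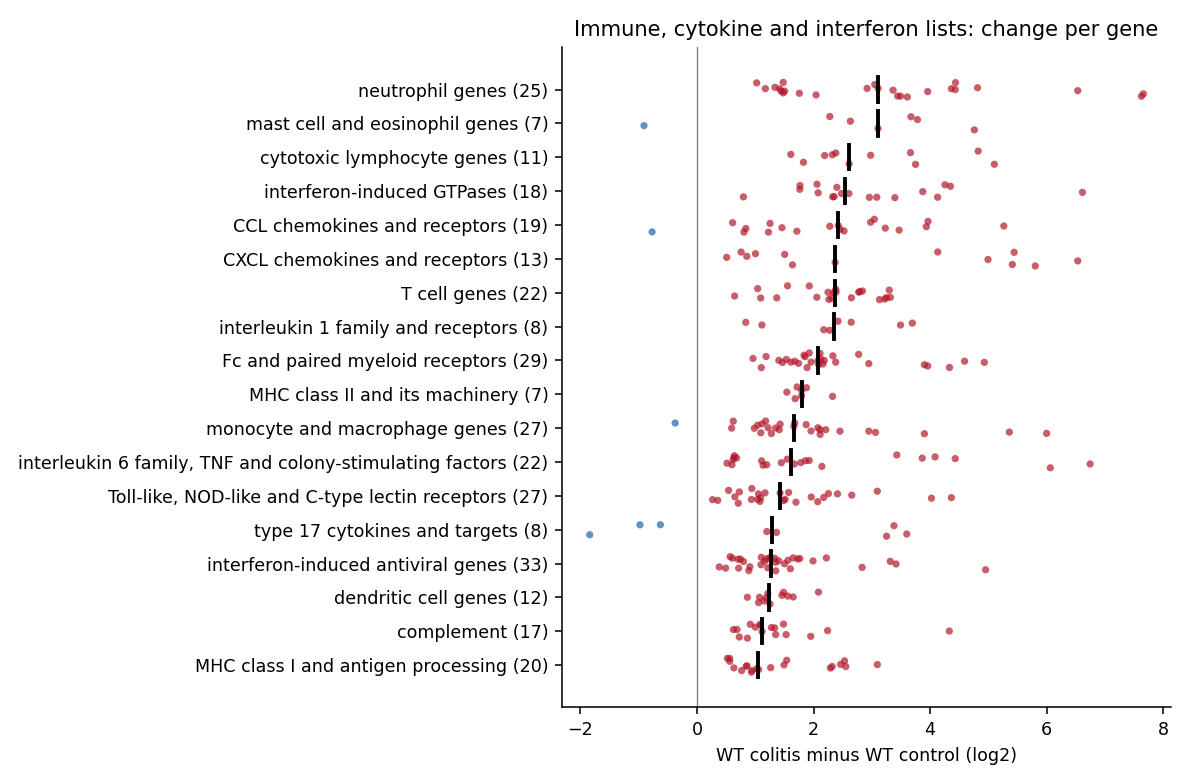
Each point is a listed gene, placed by its change in colitis (WT colitis minus WT control, log2, x axis), in 18 lists of immune, cytokine and interferon genes with the number of listed genes in brackets, red where it rose and blue where it fell, and black bars are list medians. The medians run from 1.04 in MHC class I and antigen processing to 3.11 in neutrophil genes, and blue points stand in 4 lists, those of mast cells and eosinophils, CCL chemokines, monocytes and macrophages, and type 17 genes.

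Interferon-induced genes rose without an exception among those listed. Interferon induces GTPases of the GBP and IRG families, which attack microbes inside cells, and 18 of 18 listed members rose, with a median of 2.54. Iigp1 went from 16.3 to 311 RPM (4.25), Gbp2 from 36.9 to 313 RPM (3.08) and Igtp from 22.8 to 177 RPM (2.96). The near-identical Tgtp1 and Tgtp2 rose by 3.87 and 4.13, values that depend on how the authors' counting split their reads. Of the antiviral genes 33 of 33 rose (median 1.27). Ido1, the tryptophan-degrading enzyme, rose from 4.37 to 135 RPM (4.95), Ifit2 from 16.5 to 164 RPM (3.32), and the transcription factor gene Irf1 by 0.91.

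Promoter windows of 300 bases were matched for 9 of the 18 GTPase genes, and 9 of 9 held GAAA, then 2 bases of any kind, then GAAA on either strand, the core of the element read by interferon regulatory factors, beside 3.49% of all 27025 genes with a window. These stretches carry the pattern most plainly and are shown along each gene, with capitals for that element and for TTCNNNGAA, the element read by STAT dimers.
Tgtp2, chr11:49064248-49064307, minus strand: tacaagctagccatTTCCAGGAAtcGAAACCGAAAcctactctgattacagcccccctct
Tgtp1, chr11:48992289-48992348, minus strand: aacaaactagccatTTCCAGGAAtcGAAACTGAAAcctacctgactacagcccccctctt
Igtp, chr11:58199497-58199555, plus strand: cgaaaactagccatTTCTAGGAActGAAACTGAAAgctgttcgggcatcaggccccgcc
Irgm2, chr11:58214888-58214947, plus strand: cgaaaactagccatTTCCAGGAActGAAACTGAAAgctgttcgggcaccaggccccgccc
Irgm1, chr11:48871421-48871475, minus strand: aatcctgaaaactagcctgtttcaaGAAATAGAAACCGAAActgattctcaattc
Gbp2, chr3:142620579-142620638, plus strand: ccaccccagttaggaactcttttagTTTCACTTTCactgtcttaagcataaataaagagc
Gbp3, chr3:142559974-142560039, plus strand: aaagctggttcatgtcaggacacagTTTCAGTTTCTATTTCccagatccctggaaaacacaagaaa
Gbp7, chr3:142530258-142530317, plus strand: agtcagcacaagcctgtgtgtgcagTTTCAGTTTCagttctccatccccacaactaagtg
Gbp2b, chr3:142594685-142594744, plus strand: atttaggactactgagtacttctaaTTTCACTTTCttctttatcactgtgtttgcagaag
The first match lay between 30 and 137 bases before the start. In Tgtp1, Tgtp2, Igtp and Irgm2 a STAT element stood 2 bases before the interferon element, while the elements of the Gbp genes lay in the other orientation. Among antiviral genes 11 of 23 windows held the interferon element (47.8%), and among class I genes 5 of 17 (29.4%). The changes of these 9 genes ranged from 1.76 for Irgm1 to 4.13 for Tgtp2. The list was drawn up as one of interferon-induced genes, in which this element is common. Stretches of Tgtp1 and Tgtp2, and of Igtp and Irgm2, are nearly alike, so the 9 are not independent cases.

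Antigen presentation rose in 20 of 20 class I and 7 of 7 class II genes. Nlrc5, the transactivator of class I genes, rose from 6.26 to 53.4 RPM (3.09), the peptide transporter Tap1 from 48.6 to 285 RPM (2.55) and H2-Q7 by 2.46. Reads of H2-Q6 and H2-Q7, which are close copies, may have been split between them. For class II, Ciita, the transactivator, rose by 1.88, and the invariant chain Cd74 from 421 to 1460.0 RPM (1.79). The class II genes moved within a band of 1.54 to 2.32. The proteasome rose in 21 of 21 listed genes, unevenly. The subunits that interferon exchanges, Psmb8 (2.53), Psmb9 (2.29) and Psmb10 (1.26), rose most, while the median over the list was 0.33.

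Genes of the plasma cascades and of matrix turnover mostly rose. Complement genes rose in 17 of 17 cases, with C3, the central component, from 200.0 to 945 RPM (2.24), C4b by 1.95 and C6 at least 14.4-fold higher. Of the coagulation genes and serpins 21 of 22 rose. Serpina3n went from 48.6 to 411 RPM (3.08) and its neighbour Serpina3f from 1.08 to 22.6 RPM (4.39), with Serpina9 the exception (−2.68). Matrix metalloproteinases and their inhibitors rose in 13 of 15 cases. Mmp10 (4.85) and Mmp3 (4.75), which are stromelysins, went to 54.3 and 95.5 RPM, the collagenase Mmp13 to 75.4 RPM (3.37), and the inhibitor Timp1 to 37.9 RPM (3.89). Timp4 (−1.33) and Mmp15 (−0.50) fell.

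Of 14 listed collagen genes 9 rose and 5 fell. Col1a1 (362 to 849.9 RPM, 1.23), Col1a2 (1.01) and Col3a1 (0.93), the main collagens of fibrils, and the basement membrane collagen Col18a1 (1.55) rose, and Col8a1 fell from 193 to 45.3 RPM (−2.09), with Col8a2, Col9a2, Col4a6 and the fibrillar Col11a1 also down. Among other genes of fibroblasts and matrix, 22 of 24 rose. Grem1, an antagonist of bone morphogenetic proteins made by stroma below the crypts, rose from 151 to 746 RPM (2.31), Lox, which crosslinks collagen, by 2.01, and Spp1, osteopontin, was at least 16.0-fold higher. Of the Adam and Adamts proteases 10 of 13 rose, Adam12 by 2.57, while Adamts18 fell from 3.65 to 0.604 RPM (−2.60).

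Genes of the muscle and nerve of the gut wall mostly fell. Smooth muscle genes fell in 7 of 7 cases, between −1.10 and −0.52, Myh11, the smooth muscle myosin, from 2019 to 1279 RPM (−0.66) and Acta2 from 1599.6 to 1066 RPM (−0.59). The median of that list was −0.62. Genes of enteric neurons and glia fell in 15 of 16 cases (median −0.92). Chat, which makes acetylcholine, went from 2.67 to 0.761 RPM (−1.81) and Nos1, the synthase of inhibitory neurons, from 54.9 to 26.5 RPM (−1.05), whereas Tac1, which encodes substance P, rose from 31.9 to 82.5 RPM (1.37). Endothelial genes rose in 7 of 7 cases. These were mostly the adhesion genes that let leukocytes leave the blood, namely Selp (3.32 to 21.4 RPM, 2.69), Vcam1 (1.77), Icam1 (22.8 to 64.3 RPM), Madcam1 (1.45) and Sele, which was at least 5.87-fold higher, while Eng, which marks vessels at rest too, rose by 0.63. Beside these falls, the summed level of the listed macrophage genes went from 2451 to 5464 RPM, with 26 of 27 up, and that of the listed T cell genes from 77.9 to 212 RPM, with 22 of 22 up. The part of such gains in the shares of muscle and nerve was not tested.

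Among lists of epithelial cell types, 5 of 7 enteroendocrine and tuft cell genes fell and 2 rose. Pou2f3 (4.59 to 1.23 RPM) and Trpm5 (−1.55), the master factor and the taste channel of tuft cells, fell, Trpm5 from 25.6 to 8.73 RPM. Tph1, which makes serotonin in enteroendocrine cells, fell by 0.97, while the hormone gene Cck rose by 1.14. Of the crypt and Wnt target genes 5 of 7 fell. These included Ascl2, the stem cell factor, from 13.5 to 3.75 RPM (−1.85), and Axin2, a feedback target of Wnt, from 91.7 to 38.1 RPM (−1.27). Prom1, a membrane protein of progenitors, rose from 682 to 963 RPM and Cd44, an adhesion receptor of crypts and leukocytes, from 98.3 to 125 RPM. With Prom1 as its most abundant member, the summed level of the list went up, from 994 to 1201 RPM, while most of its members fell. Lgr5 was in none of the 4 tables and was not analysed here. The repair list rose in 15 of 15 cases, led by the cornified envelope gene Sprr2h (at least 5.52-fold higher), Ly6a and Il33. Sprr1a rose by 1.46 and Plaur, the urokinase receptor, by 1.48.

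The listed cell division genes changed little. Of 55 genes of the list 12 were in any table and 11 of these were listed here, beside 63.1% of all genes of the 4 tables. Of the 11, 9 rose and 2 fell, none by as much as 1. Ccnd1 rose from 183 to 320.3 RPM (0.81), and Cdkn1a, an inhibitor of division that surface cells express, fell from 613 to 353 RPM (−0.80). Among the junction genes 20 of 22 fell, but 13 of these were the Pcdha genes, variable exons joined to the same last exons, whose changes between −1.16 and −1.06 may hold the same reads. Apart from the Pcdha genes Pcdh17 fell from 81.2 to 16.8 RPM (−2.28), the tight junction gene Ocln by 0.74 and the claudin gene Cldn8 by 0.82.

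**Figure D4:**
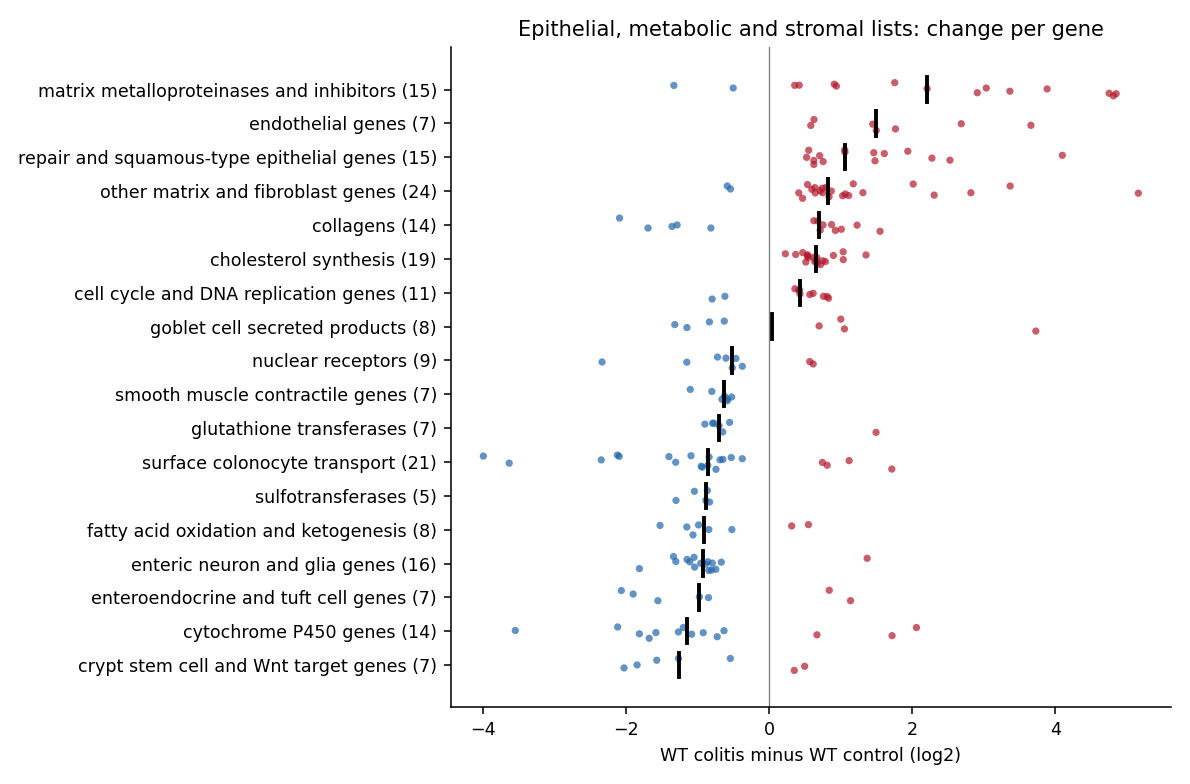
Each point is a listed gene, placed by its change in colitis (WT colitis minus WT control, log2, x axis), in 18 lists of epithelial, metabolic and stromal genes with the number of listed genes in brackets, red where it rose and blue where it fell, and black bars are list medians. Sulfotransferase and smooth muscle genes are blue throughout, cholesterol synthesis, endothelial and repair genes are red throughout, and goblet cell products and collagens hold both.

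Genes of ribosomes, the respiratory chain and protein folding were listed less often than the genes of the 4 comparisons together, of which 63.1% were listed here. Of 47 cytosolic ribosomal protein genes in the 4 tables of the series 1 was listed in this comparison, Rps12 with a rise of 0.35, and the others stand in other comparisons. Of 23 genes of the mitochondrial ribosome and respiratory chain in any of the 4 tables, 5 were listed here. The list of protein folding in the endoplasmic reticulum held 32 genes, of which 19 were in any of the 4 tables. Of these, 7 were listed here, 6 up and 1 down, with a largest rise of 0.63 for Sec61b, a channel subunit. Genes in none of the 4 tables are left out of these shares, so the part of each class that changed cannot be read from them. Glycolysis had 5 of 6 listed genes up, led by Hk3, a hexokinase of myeloid cells, at 2.30.

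Position in the genome was examined last among the shared features. Genes of the list that follow each other within 50 kb, without overlap, moved in the same direction in 487 of 659 pairs (73.9%), beside 51.6% of the 1020 pairs further apart than 500 kb. Overlapping neighbours did so in 206 of 212 pairs (97.2%), and their reads may be shared. Runs of genes in the same direction were read at a distance of up to 100 kb, with overlapping genes kept. Many of these runs hold gene families. In the MHC on chromosome 17, 12 genes in a row from H2-DMa to Btnl2 (GRCm38, chr17:34135182-34369493) rose, by 0.92 to 2.55. A row of 10 genes of the interferon-induced Ifi200 family (chr1:173468485-174031810) rose by 0.87 to 2.45, and the row from C3ar1 to Clec4d (chr6:122847138-123275265), mostly lectin receptors of myeloid cells, by 1.51 to 4.36. Among falls, the Pcdha genes stood in a row of 13, and the Mettl7a genes with Methig1 and Higd1c in a row of 5, in which Mettl7a1 fell by 1.04.

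The label of the tissue was checked against genes that mark colon and small intestine, since a text of the series names small intestine and the sample labels colon. Car4, Slc26a3 and Aqp8 stood between 1702 and 2156 RPM in WT control. Of 25 genes of small intestine 3 were listed here, Mep1a (996 RPM), Slc15a1 (177 RPM) and Rbp2 (41.9 RPM), and 5 in any table, and the others were not analysed here. The samples are called colon, as their labels do. Smarcad1 itself, the gene deleted in KO, was not listed and had WT means of 5.77 and 5.68 log2 RPM.

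Promoters were compared between genes by the size of their change. RefSeq windows from 250 bases before to 50 bases after the start were matched for 2360 of the 3261 genes, 1 window a gene, and 10 motifs were searched on both strands, with overlaps between motifs allowed. Among these were TTATGTAA (the D-box), TCACNCCAC (a sterol response element) and CAAAGNNCA (the HNF4 site). They were found in 1.61%, 1.21% and 8.06% of 248 genes with a rise of at least 2, beside 0.958%, 1.22% and 6.36% of all genes with a window. In 732 genes with a rise under 1 their shares were 0.273%, 1.23% and 4.78%, and in 986 genes that fell 1.22%, 1.52% and 5.68%. The interferon element was found in 13.3% of 248 genes with a rise of at least 2, in 5.74% of 732 genes with a rise under 1, and in 2.54% of 986 genes that fell. The C/EBP form was found in 23%, 8.74% and 9.63% of the same classes, and TGANTCA, the AP-1 site, in 17.3%, 5.74% and 5.98%. Over all 27025 windows the shares of these 3 forms were 3.49%, 10.7% and 7.92%. The NF-kB form, GGG and TTTCC with 2 bases of any kind between them, was rarer, at 4.84%, 1.5% and 1.93%, beside 1.63% of all windows. TATAAA was found in 26.6%, 6.83% and 10.6%, beside 14.2% of all windows. CACGTG, the E-box, was least common in the largest rises, at 5.65%, 10.7% and 9.43%, beside 7.24% of all windows. TTCNNNGAA was found in 15.3%, 8.20% and 5.17%, beside 8.42% of all windows. Base composition differed between these classes too. The median number of CG pairs in the window was 3 for rises of at least 2, 20 for rises under 1, 17 for falls and 7 for all genes of the table, and its part in the shares was not tested.

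**Figure D5:**
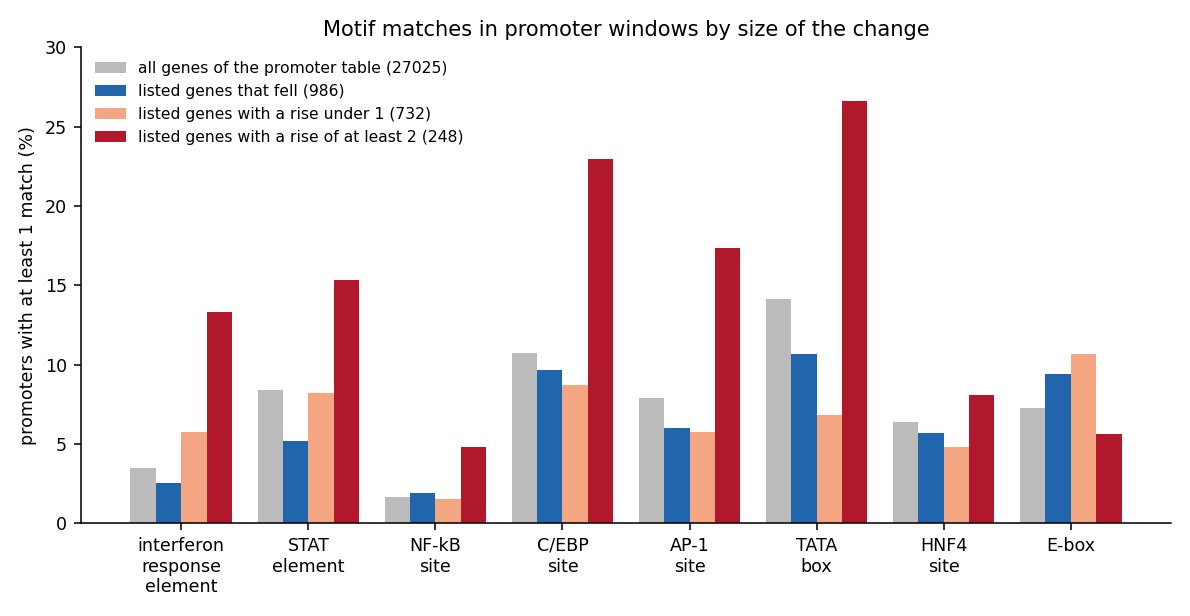
Bars give the percentage of promoter windows with at least 1 match of each of 8 motifs (y axis, starting at 0), for all genes of the promoter table, listed genes that fell, listed genes with a rise under 1 and listed genes with a rise of at least 2, with the number of windows in brackets. The last class stands highest for 7 of the 8 motifs, with 26.6% for the TATA box, and lowest for the E-box with 5.65%.

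The same genes were then read in KO mice, whose libraries had no part in the choice. Of the 3261 genes 3206 moved in the same direction in KO (98.3%), 1852 of the 1895 that rose and 1354 of the 1366 that fell. The median KO change was 0.69 for genes that rose in WT and −0.70 for those that fell. As the genes were chosen on their WT values, the larger WT medians are no measure of a larger response. Among the 1459 genes with a WT change of at least 1, 1449 had the same direction in KO. The 10 exceptions include Pik3c2g, a lipid kinase gene (2.07 in WT and −0.52 in KO), and St8sia5, a sialyltransferase gene (−1.35 and 0.53). Cholesterol synthesis had a median of 0.81 in KO beside 0.66 in WT, MHC class II 2.02 beside 1.79, T cell genes 2.32 beside 2.36 and antiviral genes 1.27 beside 1.27. For collagens it was 0.08 beside 0.70, and for neutrophil genes 1.65 beside 3.11. In WT control 7 of the 25 neutrophil means were at or under 3 reads. With these raised to 3 reads the WT median was 2.04. The KO median of 1.65 was taken without that step, although KO control means of S100a8, S100a9 and Cxcr2 were under 3 reads too. The values 2.04 and 1.65 are therefore not alike measures. Among single genes, Clca4b (7.52 in KO) and Nos2 (4.48) were close to their WT values, Atp12a was at −0.28 beside −2.10, and Mettl7a2 at −1.63 beside −4.51. Whether any of these responses differs between the genotypes was not tested.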

How the data were processed

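RNA of 16 libraries was studied, from whole colon of WT and KO mice with and without DSS (3 control and 5 colitis libraries per genotype). Per the labels and methods, the authors aligned reads to GRCm38 with HISAT2 2.1.0, kept uniquely mapped reads, set aside reads over annotated rRNA, since some samples held rRNA, and counted reads over exons. Labels give single-end and methods paired-end reads, and use of strand was not stated. The deposited values are log2 RPM, as the authors' mean over the libraries of a group, for genes with a DESeq2 adjusted p under 0.05 in 1 of 4 comparisons. Values were not corrected for exon length, and zeros stand as 0.9 reads, as inferred from how low values are spaced. A column of adjusted p-values from the authors was neither used nor printed. No column of single samples was used and 0 were left out.

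Means of the 4 tables were joined by gene, with a largest difference of 0 between tables. Changes are differences of means, and RPM values are 2 to the power of a mean, so geometric means. Depth was recovered from the steps between the lowest means, as all 114 WT control and 60 WT colitis low means lay on whole reads within 0.0002 log2. That step was tested on simulated data. With group means alone no test was run, and the depth limits only single values, by counting error. Exon length came from the GRCm38 annotation (3219 genes matched), and promoters from RefSeq on GRCm38.p6 (2360 matched, with the most upstream start of a gene). Python 3.11.15, pandas 2.3.3, numpy 2.4.6 and matplotlib 3.10.9 were used.

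Genes named are the 10 largest rises and falls, the 10 highest levels per kilobase in each group, the smallest rise and fall, Smarcad1, Reg3b, Reg3g, Clca4b, Mettl7a2 and Slc34a2 and, in each list, the 3 largest changes and the gene with the highest level per kilobase in WT colitis. Others were chosen after their values were seen, and some genes that this rule names are not reported here. Members and lists were chosen with earlier results of these data known. Alternatives were another size threshold, another level measure, low means raised to 3 reads, overlapping genes left out, and centring on the median of genes listed in other tables alone.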

Additional observations from a re-analysis of the deposited data

How the results depend on the processing

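The alternatives gave 266 recomputed values, of which 245 moved by less than 0.2 (log2), 5 percentage points or 1.5-fold for counts, 18 moved further and 3 reversed. The number of genes with a change of at least 1, 1459, became 2617 at 0.5 and 459 at 2. Binned by the mean of both groups per kilobase, the lowest bin had a median change of 0.96, with 53.7% rising, and the highest bin had 66.5% rising. The median of goblet cell products was −0.63 with overlapping genes left out, and that of alcohol, aldehyde and retinol dehydrogenases 0.63, and 0.015 when changes were centred on the median of genes listed in other tables alone, which was −0.08. In the main processing the medians of goblet cell products and of these dehydrogenases were 0.04 and −0.07. The cause of the shifts was not tested. Centring turned none of the 3261 directions. With overlapping genes left out the medians of CXCL genes and junction genes became 4.13 and −0.74, and with low means raised to 3 reads those of neutrophil and metalloproteinase genes 2.04 and 1.76. Low depth leaves 124 rises and 45 falls as lower bounds. No paired analysis was possible because the deposited tables used here hold group means, and leaving out single replicates was not run for the same reason.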

Other observations

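Of the 1910 genes that the other comparisons of the series list and this one does not, the median WT change was −0.08. By gene type, 1778 protein coding genes rose and 1247 fell, while antisense transcripts were even, with 35 up and 35 down, and 28 lincRNA genes rose and 25 fell. By chromosome, 38 of 85 listed genes of chromosome 18 rose (44.7%), among them none of the 13 Pcdha genes, beside 66.0% on chromosome 16. No hypothesis was drawn from these values.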
